A study of Mus musculus with 8 samples.

Results

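The fuel-switch targets of the glucocorticoid receptor are 10 genes: Pdk4, Pdk2, Angptl4, Txnip, Arrdc2, Arrdc3, Arrdc4, Glul, Ppargc1a and Cpt1a. Their products act in the use of glucose or fat, in nutrient uptake and receptor levels, or in glutamine synthesis. The 10 genes were taken by symbol from the table of 24918 gene rows, and each had a single row. All 10 were among the 14715 rows that passed the filter on low values. The libraries came from whole corneas of male C57BL/6J wild-type mice. The mice had lost their adrenal glands in surgery at 8 weeks of age, and about 4 weeks later their eyes received drops of dexamethasone, a synthetic glucocorticoid, or of vehicle for 6 h. All 8 libraries therefore come from animals without adrenal glucocorticoids, and no animal with its adrenal glands was included. There were 4 libraries after dexamethasone and 4 after vehicle. Each library pools 4 to 6 corneas, and nothing in the labels ties the corneas of a pool to a number of mice. The p-values measure the spread between these pools.

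Glucocorticoids are the hormones of fasting and stress. In liver and muscle they raise inhibitors of glucose use, such as the pyruvate dehydrogenase kinases, which shut the entry of pyruvate into the mitochondrial citric acid cycle, and they promote the release and oxidation of fat. The alpha-arrestins TXNIP and the ARRDC proteins lower nutrient uptake and receptor levels at the cell surface. The normal cornea has no blood vessels and lives largely on glucose from the aqueous humour, which its epithelium stores in part as glycogen.

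The 10 genes did not move as a block. Txnip rose 1.71-fold, Pdk4 1.36-fold, Glul and Arrdc3 1.32-fold each, Arrdc2 1.29-fold and Pdk2 1.13-fold after dexamethasone. Arrdc4 fell, with a ratio of 0.883. Angptl4, Ppargc1a and Cpt1a did not pass the test. In all 6 genes rose, 1 fell and 3 were not called at an adjusted p below 0.05 (limma with Benjamini-Hochberg adjustment over all tested rows). Of all tested rows 15.1% were called, 9.04% higher and 6.03% lower. The median log2 fold change was 0.274 over the 10 genes and -0.003 over all tested rows. The groups did not overlap for 6 of the 10 genes, where 20.7% of all tested rows showed no overlap. Values throughout are the authors' normalized log2 values, fold changes are differences of these values (dexamethasone minus vehicle) or 2 raised to them, and errors of group means are SDs.

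**Figure D1:**
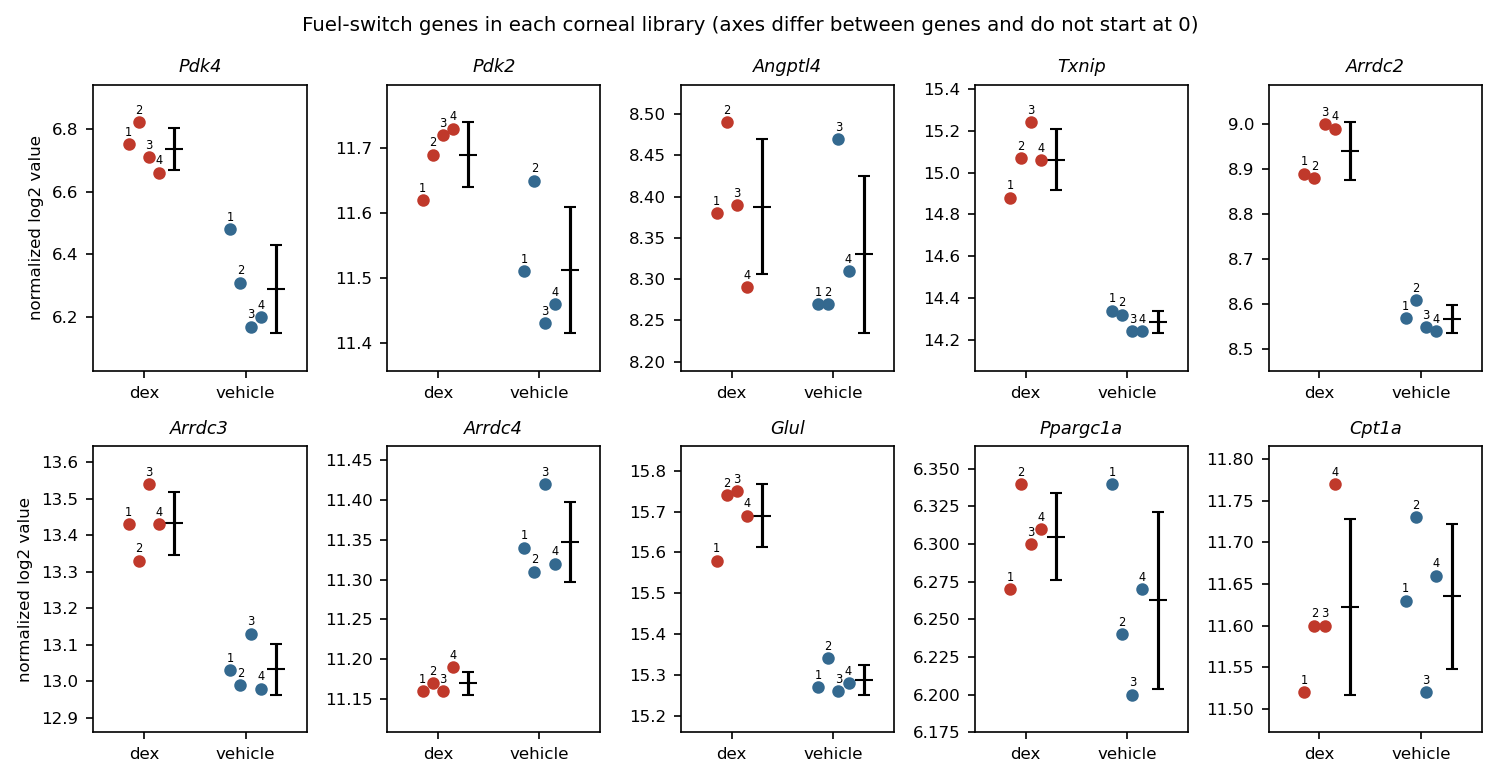
Normalized log2 value of each of the 10 genes (vertical axis, a separate scale for each gene that does not start at 0) in the 4 dexamethasone (red) and 4 vehicle (blue) libraries, numbered by replicate, with mean and SD in black. Txnip, Pdk4, Arrdc2, Arrdc3 and Glul lie higher in all 4 dexamethasone libraries and Arrdc4 lies lower, whereas the groups overlap for Pdk2, Angptl4, Ppargc1a and Cpt1a.

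The epithelial markers Krt12, Krt5, Pax6, Aldh3a1, Tkt and Krt14 and the stromal markers Kera, Lum, Dcn, Col1a1, Col5a1 and Aldh1a1 were all above the filter, with summed log2 levels of 20.76 to 20.91 after dexamethasone and 20.87 to 20.93 after vehicle for the epithelial list, and of 18.23 to 18.31 and 18.21 to 18.29 for the stromal list. Of the epithelial markers 1 fell, Krt5 with -0.23, and of the stromal markers 2, Kera with -0.14 and Lum with -0.18. Fkbp5, the receptor co-chaperone gene, rose by 0.88 (SE 0.05), Tsc22d3 by 0.59 (SE 0.04) and Per1 by 0.42 (SE 0.04). Nr3c1, the receptor gene, had a log2 fold change of -0.08 (adjusted p = 0.0692), and passed with quantile normalization (0.0372) or library quality weights (0.0397). Replicate 1 of the dexamethasone group and replicate 3 of the vehicle group lay apart from the remaining libraries and shared their deviations from the group means (r = 0.65 across the 14715 rows, which are not independent). This pair was picked with earlier results of these data known, so its r only describes it. In bulk tissue, a lower share of a cell type and less RNA per cell cannot be told apart. Fat and muscle also use many of these genes. The adipocyte markers Adipoq, Plin1 and Cidec lay below 0 in all 8 libraries and Cfd was listed at 0, and none of the 6 adipocyte markers reached the filter. The 7 skeletal muscle markers summed to 6.40 to 6.42 after dexamethasone and 6.39 to 6.86 after vehicle, where vehicle replicate 1 was the highest. Of the 6 corneal endothelium markers 2 rose and 2 fell, and their sums were 15.91 to 15.96 against 15.77 to 15.84. Of the 5 leukocyte markers 1 fell, with sums of 10.44 to 10.57 against 10.58 to 10.61, and of the 4 blood vessel markers 1 rose, with sums of 10.72 to 10.84 against 10.60 to 10.70. None of the tested conjunctival, lens and retina or red cell markers was called. The part that these differences have in the values below was not tested.

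Per kilobase of annotated exon, the levels of the 10 genes in vehicle corneas covered a wide range. On the log2 scale per kb, Glul stood at 13.55, Txnip at 12.68, Arrdc3 at 10.39, Pdk2 at 9.85, Cpt1a at 9.53, Arrdc4 at 9.35, Arrdc2 at 7.35, Angptl4 at 6.61, Pdk4 at 4.48 and Ppargc1a at 3.53. Glutamine synthetase and TXNIP thus had the most abundant transcripts of the set, and the kinase PDK4 and the coactivator PGC-1alpha had the least. Neighbours in this order were separated in all 4 vehicle libraries except for Cpt1a and Arrdc4, whose ranges per kb met at 9.42 (9.42 to 9.63 and 9.31 to 9.42). Exon length was taken over all isoforms, so the order is approximate.

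The pyruvate dehydrogenase kinases phosphorylate and switch off the complex that turns pyruvate into acetyl-CoA. Pdk4 (Entrez 27273; mm9 chromosome 6, 5433351 to 5446309, minus strand), the family member best known for its induction in fasting, stood at 6.75, 6.82, 6.71 and 6.66 in dexamethasone libraries 1 to 4, against 6.48, 6.31, 6.17 and 6.20 in vehicle libraries 1 to 4. Every dexamethasone library lay above every vehicle library. The log2 fold change was 0.44 (SE 0.06, adjusted p = 0.00087). Vehicle replicate 1 held the highest vehicle value of Pdk4 and also the highest muscle sum, and without it the fold change was 0.51 (SE 0.05). Pdk2 (Entrez 18604; chromosome 11, 94887572 to 94902668, minus strand), the most widely expressed kinase of the family, stood at 11.62, 11.69, 11.72 and 11.73 after dexamethasone, against 11.51, 11.65, 11.43 and 11.46 after vehicle. Vehicle replicate 2 lay within the dexamethasone range, and the other 3 vehicle libraries lay below it. The change was 0.18 (SE 0.05, adjusted p = 0.0234). This call was lost on removal of replicate 2, 3 or 4 of the dexamethasone or 1 or 4 of the vehicle group (adjusted p between 0.0536 and 0.0773), with no filter (0.0535) and with quantile normalization (0.0558).

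The other kinases of the family did not pass. Pdk1, a target of hypoxia signalling, had a log2 fold change of -0.003 (95% interval -0.11 to 0.10) and Pdk3 one of 0.02 (-0.09 to 0.13). The log2 difference between Pdk4 and Pdk1 within a library averaged -4.62 after dexamethasone and -5.07 after vehicle, and that between Pdk4 and Pdk3 averaged -0.93 and -1.35. Both differences separated the groups (0.45 and 0.42, exact two-sided permutation p = 0.0286 each, the smallest that 4 against 4 libraries allow, and 0.0357 adjusted over 10 pairs). The difference between Pdk4 and Pdk2 moved by 0.27 and did not pass (exact p = 0.0571, adjusted 0.0635). Pdk4 was a small part of the family: per kb of exon it made up 2.03% ± 0.129 of the summed level of the 4 kinase genes after dexamethasone and 1.64% ± 0.143 after vehicle (SD, n = 4 each). Pdk2 made up 70.1% ± 1.20 and 67.9% ± 1.26.

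Around the kinases, the list of the pyruvate dehydrogenase complex, its phosphatases and the pyruvate carrier held 15 tested genes, of which 2 rose, 1 fell and 12 were not called, with a median of -0.003. This is 20% called, against 15.1% of all rows. Pdha1, the catalytic subunit that the kinases phosphorylate, rose by 0.10 (SE 0.03) and Pcx, pyruvate carboxylase, by 0.08 (SE 0.02). Ldha, which makes lactate from pyruvate, had a log2 fold change of -0.20 (SE 0.05). The call for Pcx was lost when any of the 8 libraries was left out (adjusted p of 0.0591 to 0.136), and with quantile normalization (0.127), median centring (0.0518), robust moderation (0.0609) or both libraries that lay apart left out (0.0557). That for Pdha1 was lost on removal of replicate 3 of the dexamethasone or 2 or 4 of the vehicle group (0.0585 to 0.0617) and with quantile normalization (0.103), where 1 gene of the list was higher and 2 were lower. That for Ldha was lost on removal of vehicle replicate 4 (0.0576), or of both libraries that lay apart (0.0545). The list held 1 call once replicate 3 of the dexamethasone or 2 of the vehicle group was removed, and 0 once vehicle replicate 4 was.

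The alpha-arrestins are adaptors that bring ubiquitin ligases of the NEDD4 type to membrane proteins. Txnip, the thioredoxin-interacting protein gene (Entrez 56338; chromosome 3, 96361880 to 96365806, plus strand), encodes a brake on glucose uptake through the transporters GLUT1 and GLUT4. It stood at 14.88, 15.07, 15.24 and 15.06 in dexamethasone libraries 1 to 4, against 14.34, 14.32, 14.24 and 14.24 in vehicle libraries 1 to 4. The lowest dexamethasone library exceeded the highest vehicle library by more than the SD of either group, which was 0.15 after dexamethasone and 0.05 after vehicle. The log2 fold change of 0.78 (SE 0.06, adjusted p = 1.75e-05) was the largest of the 10 genes, and 0.136% of tested rows had a larger absolute change.

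Arrdc3 (Entrez 105171; chromosome 13, 81022645 to 81035296, plus strand), known for regulating beta-adrenergic receptors and body fat in mice, stood at 13.43, 13.33, 13.54 and 13.43 after dexamethasone, against 13.03, 12.99, 13.13 and 12.98 after vehicle, a change of 0.40 (SE 0.05, adjusted p = 0.00016). Arrdc2 (Entrez 70807; chromosome 8, 73359054 to 73363619, minus strand), a less studied relative, stood at 8.89, 8.88, 9.00 and 8.99 after dexamethasone, against 8.57, 8.61, 8.55 and 8.54 after vehicle, a change of 0.37 (SE 0.04, adjusted p = 9.75e-05). Both genes were higher in every dexamethasone library than in any vehicle library. Arrdc4 (Entrez 66412; chromosome 7, 75881931 to 75894127, minus strand), the closest relative of Txnip in its response to glucose, went the other way. It stood at 11.16, 11.17, 11.16 and 11.19 after dexamethasone, against 11.34, 11.31, 11.42 and 11.32 after vehicle. All 4 dexamethasone libraries lay below all 4 vehicle libraries, within 0.02 (SD) of their mean, and the change was -0.18 (SE 0.03, adjusted p = 0.00199). Its direction and call held in all 19 alternatives, with log2 fold changes of -0.20 to -0.15.

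**Figure D2:**
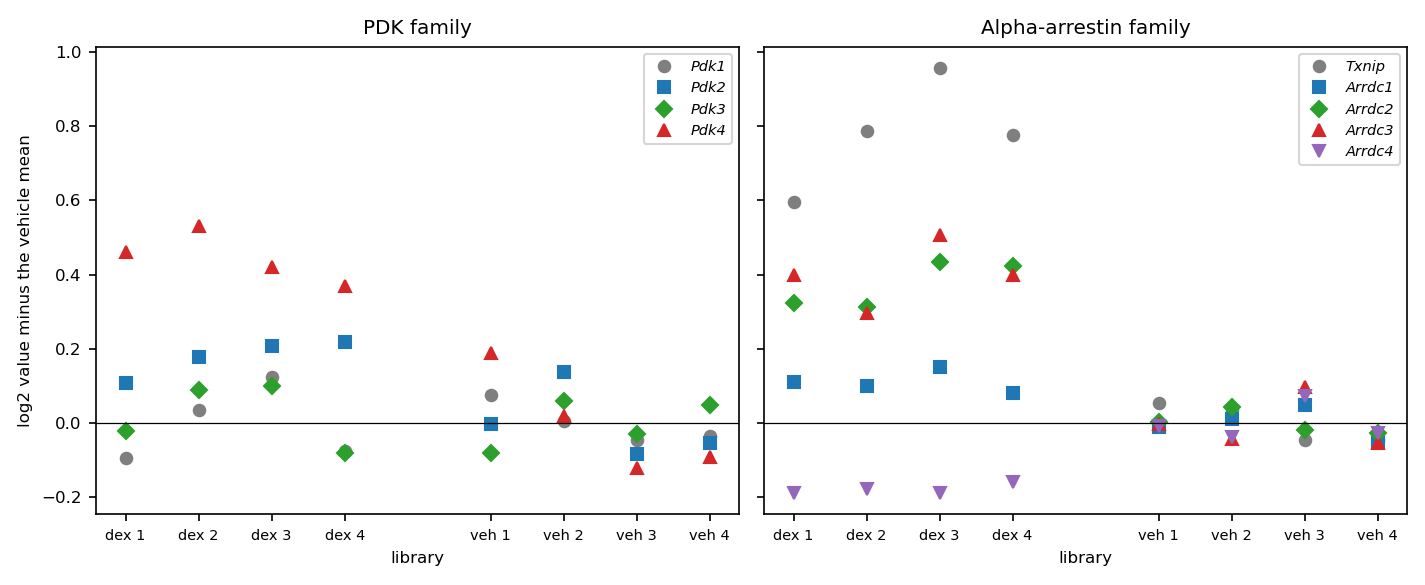
Log2 value minus the gene's vehicle mean (vertical axis) in each of the 8 libraries (dex, dexamethasone; veh, vehicle) for the 4 PDK genes (left) and 5 alpha-arrestin genes (right), a point per gene and library. In the dexamethasone libraries Txnip stands highest and Arrdc4 lies below 0, and Pdk4 stands above the other kinase genes.

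The unequal movement of the arrestins was also described by differences between genes, taken within each library and compared between the groups. Arrdc4 minus Txnip averaged -3.89 ± 0.15 after dexamethasone and -2.93 ± 0.09 after vehicle (SD, n = 4 each), a difference of -0.96. The differences of Arrdc2 and Arrdc3 to Arrdc4 moved by 0.55 and 0.58, and those of Arrdc2 and Arrdc3 to Txnip by -0.41 and -0.37. Each of these 5 pairs separated the groups without overlap (exact permutation p = 0.0286, adjusted 0.0357). For the pairs with Arrdc4 this outcome was fixed by the single genes, which moved in opposite directions without overlap. Their p-values therefore add nothing to the single-gene calls. Arrdc2 minus Arrdc3 averaged -4.50 ± 0.05 and -4.46 ± 0.08, a movement of -0.03 that did not pass (exact p = 0.629). Per kb of exon, Txnip made up 76.3% ± 1.63 of the summed level of Txnip and Arrdc1 to Arrdc4 after dexamethasone and 68.5% ± 1.23 after vehicle. Arrdc4 made up 3.92% ± 0.326 and 6.81% ± 0.290 (SD, n = 4 each). The shares add up to a fixed total, so a larger share of Txnip lowers the others. Arrdc1, with 6.33% ± 0.469 and 8.99% ± 0.271, Arrdc2 and Arrdc3 also had lower shares after dexamethasone, without overlap, although these genes rose. A lower share therefore does not measure the fall of Arrdc4 itself, which was -0.18 on the log2 scale.

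Txnip and Arrdc4 are both known targets of the glucose-sensing factors MondoA and ChREBP, which bind paired E-box-like sites called carbohydrate response elements. Their start-site windows are shown because these neighbours in glucose control moved in opposite directions. Each runs from 250 bases before to 50 after the annotated RefSeq start in build GRCm38.p6, on the gene's strand. Capitals mark a pair of CACGNG copies with 5 bases between them in Txnip (chr3:96557707-96558006, plus strand) and CACGTG in Arrdc4 (chr7:68749189-68749488, minus strand).
Txnip: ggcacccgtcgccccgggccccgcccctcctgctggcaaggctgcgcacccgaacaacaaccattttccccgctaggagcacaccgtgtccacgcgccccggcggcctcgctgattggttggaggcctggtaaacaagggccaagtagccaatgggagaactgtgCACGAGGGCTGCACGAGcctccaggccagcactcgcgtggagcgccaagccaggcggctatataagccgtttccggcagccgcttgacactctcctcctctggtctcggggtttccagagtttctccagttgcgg
Arrdc4: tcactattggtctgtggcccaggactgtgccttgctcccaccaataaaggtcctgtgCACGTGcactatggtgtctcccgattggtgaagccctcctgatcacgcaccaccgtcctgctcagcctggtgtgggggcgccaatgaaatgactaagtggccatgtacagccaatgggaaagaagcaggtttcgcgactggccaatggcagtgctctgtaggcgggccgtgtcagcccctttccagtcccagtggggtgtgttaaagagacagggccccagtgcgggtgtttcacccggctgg
The Txnip window held 1 such pair, starting at -85 from the start, and no CACGTG. Searched on both strands, the pair occurred in 0.0487% of all 32851 windows of this length. The Arrdc4 window held CACGTG at -193 and no such pair. A Pdk2 window also held CACGTG, at -126, and it occurred in 7.15% of windows. The FoxO-type letters TGTTTAC occurred in the Txnip window, on the other strand at -121, and in 3.65% of all windows. Windows were present for 9 of the 10 genes, 12 windows in all. None of the 12 held AGAACA, the hexamer that glucocorticoid receptor sites are built from, which occurred in 19% of all windows. The search for the pair took only copies in the same orientation with exactly 5 bases between them. Other forms of the element would be missed, so Arrdc4 may still hold one. Binding to these letters in the cornea was not measured, and their part in the changes was not tested.

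Among partners of the arrestins and genes of glucose sensing, 4 of 17 tested genes rose, 13 were not called and none fell, with a median of 0.055. This is 23.5% called, against 15.1% of all rows. Mlxip, the gene of MondoA, stood at 10.92, 10.93, 11.05 and 10.98 after dexamethasone, against 10.72, 10.63, 10.70 and 10.64 after vehicle, a rise of 0.30 (SE 0.04, adjusted p = 0.000246). The groups did not overlap. Wwp1, a NEDD4-type ligase gene, rose by 0.16 (SE 0.03), Arrdc1, an alpha-arrestin gene of vesicle release, by 0.11 (SE 0.03), and Slc2a3, the gene of GLUT3, by 0.12 (SE 0.03). Slc2a1, the gene of GLUT1, had a fold change of 0.02 (95% interval -0.11 to 0.15) and Txn1, the thioredoxin gene, one of -0.08 (-0.16 to 0.01), and neither was called (both chosen with their values known). The call for Arrdc1 was lost on removal of replicate 3 of the dexamethasone or 1, 2 or 4 of the vehicle group (adjusted p between 0.0538 and 0.0877). That for Slc2a3 was lost when any library but dexamethasone replicate 1 or vehicle replicate 1 was left out (0.0545 to 0.0775), with both libraries that lay apart left out (0.069) and with no filter (0.0508). The list held 2 calls once replicate 3 of the dexamethasone or 2 or 4 of the vehicle group was removed.

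Glul (Entrez 14645; chromosome 1, 155747074 to 155756853, plus strand) encodes glutamine synthetase, which joins ammonia to glutamate and is a classic glucocorticoid-induced enzyme of muscle and retina. It stood at 15.58, 15.74, 15.75 and 15.69 after dexamethasone, against 15.27, 15.34, 15.26 and 15.28 after vehicle. The groups did not overlap, and dexamethasone replicate 1 was the lowest of its group. The change was 0.40 (SE 0.04, adjusted p = 8.34e-05). Of 17 tested genes of glutamine and glutamate metabolism, 3 fell, 14 were not called and none rose, with a median of -0.016. This is 17.6% called, against 15.1% of all rows. Slc38a1, a glutamine importer gene, fell by 0.19 (SE 0.04) on the log2 scale, with 9.71, 9.69, 9.76 and 9.74 after dexamethasone against 9.88, 9.94, 9.84 and 10.01 after vehicle. Pycr1, an enzyme gene of proline synthesis, had -0.18 and Gls2, a glutaminase gene, -0.08. The calls for Pycr1 and Gls2 were each lost when any library but dexamethasone replicate 1 or vehicle replicate 1 was left out (adjusted p of 0.0641 to 0.0968 and 0.0591 to 0.0970). Pycr1 was also lost with no filter (0.0756), and Gls2 with quantile normalization (0.0571) or without a variance trend (0.053). Asns, which encodes asparagine synthetase and was named after its values were seen, ranged from 8.14 to 9.60 after dexamethasone and from 8.93 to 10.25 after vehicle, highest in dexamethasone replicate 1 and vehicle replicate 3. Without these 2 libraries 7 genes of the list were called, 2 higher and 5 lower. The list held 5 calls once dexamethasone replicate 1 alone was removed, and 1 once replicate 2 or 4 of either group was. In place of none, 2 genes of the list were higher, with 1 lower, once vehicle replicate 3 was removed, 1 was higher, with 1 lower, once dexamethasone replicate 3 was, and 1 was higher, with 3 lower, with quantile normalization.

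Angptl4 (Entrez 57875; chromosome 17, 33910695 to 33918520, minus strand) encodes a secreted inhibitor of lipoprotein lipase and is a known receptor target in liver and fat. In the cornea it stood at 8.38, 8.49, 8.39 and 8.29 after dexamethasone, against 8.27, 8.27, 8.47 and 8.31 after vehicle. The groups overlapped, with vehicle replicate 3 above 3 of the dexamethasone libraries. The change of 0.06 (SE 0.05, 95% interval -0.06 to 0.18) was not called (adjusted p = 0.51), nor was it without dexamethasone replicate 1 and vehicle replicate 3 (0.11, adjusted p = 0.195). Lpl, the gene of lipoprotein lipase itself, had 0.02 (-0.10 to 0.14); it was named after its values were seen.

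The consensus to which the receptor dimer binds is the hexamer AGAACA, any 3 bases and the same hexamer inverted, TGTTCT. It was searched on both strands within 10 kb on either side of each annotated gene start in mm9, allowing 1 mismatch over its 12 stated bases. The matches near the 10 genes are shown on the gene's strand because they set the letters beside the response. Capitals mark bases equal to the consensus.
Angptl4, chr17:33911836-33911850, minus strand: AGAACAtttTGTTCT
Arrdc3, chr13:81030709-81030723, plus strand: AGAACAtgtTGTTCg
Glul, chr1:155744248-155744262, plus strand: gGAACAggcTGTTCT
Glul, chr1:155748755-155748769, plus strand: AGAACAataTGTTCc
The only match without mismatch lay in an untranslated region of Angptl4, 6677 bases from the gene start, and Angptl4 was not called. Such a perfect match lay within the same distance of 0.318% of the 13512 tested genes with a single annotated start. The Arrdc3 match lay in a coding exon, 8071 bases from the start. The Glul matches lay at -2819 from the start, outside the gene, and at 1688, in an intron. Windows of the other 7 genes, Txnip and Pdk4 among them, held no match with up to 1 mismatch, and 13.8% of tested genes had at least 1. Sites with more mismatches, or more than 10 kb from the start, would be missed, so these genes may still hold one. A match is a string of letters, and whether the receptor binds there in the cornea was not measured.

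Genes of lipid release and uptake moved both ways. Of 16 tested genes of the lipoprotein lipase, angiopoietin-like and lipid release list, 3 rose, 3 fell and 10 were not called, with a median of -0.025. This is 37.5% called, against 15.1% of all rows. Plin2, which encodes the coat protein of lipid droplets, stood at 10.04, 10.23, 10.14 and 10.22 after dexamethasone, against 9.67, 9.82, 9.73 and 9.72 after vehicle, a rise of 0.42 (SE 0.05, adjusted p = 0.000132). Pnpla2, the gene of adipose triglyceride lipase, stood at 11.07, 11.10, 11.10 and 11.10 after dexamethasone, against 10.81, 10.88, 10.80 and 10.75 after vehicle, a rise of 0.28 (SE 0.03, adjusted p = 0.000129). Mgll, the monoglyceride lipase gene, rose by 0.16 (SE 0.03). Lipg, the endothelial lipase gene, had a fold change of -0.20 (SE 0.05), and this call was lost without dexamethasone replicate 4 (adjusted p = 0.0564). Fabp5, a fatty acid carrier gene of epithelia, had -0.42 (SE 0.11, limma adjusted p = 0.0251). Angptl2, a relative of Angptl4, had -0.20 (SE 0.05, limma adjusted p = 0.018). Both were called and were chosen with their values known, and the groups overlapped for both. Without dexamethasone replicate 4 the list held 3 calls, all higher, so the calls of Fabp5 and Angptl2 were lost there too. Gpihbp1, Lipc, Angptl8 (listed under its older name Gm6484) and Fabp4 were among the genes below the filter that were not tested.

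Cpt1a (Entrez 12894; chromosome 19, 3323301 to 3385732, plus strand) encodes the liver-type carnitine palmitoyltransferase, the gate through which long-chain fatty acids enter mitochondria. It stood at 11.52, 11.60, 11.60 and 11.77 after dexamethasone, against 11.63, 11.73, 11.52 and 11.66 after vehicle. The ranges coincided almost wholly, and the change was -0.01 (SE 0.06, 95% interval -0.13 to 0.11, adjusted p = 0.915). Of 32 tested fatty acid oxidation genes 3 rose, 1 fell and 28 were not called, with a median of -0.002. This is 12.5% called, against 15.1% of all rows. Echs1, an enzyme gene of the beta-oxidation spiral, rose by 0.22 (SE 0.05), and Acot1, an acyl-CoA thioesterase gene with close copies whose reads may be shared, by 0.22 (SE 0.05). Acaca, whose product makes malonyl-CoA, fell by 0.22 (SE 0.04) on the log2 scale. Its relative Acacb, named after its values were seen, had -0.002 (95% interval -0.07 to 0.06) and was not called. The calls for Echs1, Acot1 and Acaca were lost with a term for the level of rows with a mean below 0 (adjusted p of 0.132, 0.137 and 0.0541), with 1 call left in the list. That level differed very little, from -0.000122 in dexamethasone replicate 2 to 8.67e-05 in vehicle replicate 2 on the log2 scale. It was lower in dexamethasone replicates 2, 3 and 4 than in any vehicle library. The term therefore cannot be fully told apart from the treatment.

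Ppargc1a (Entrez 19017; chromosome 5, 51845488 to 51958964, minus strand) encodes PGC-1alpha, a coactivator that drives mitochondrial and fasting genes. It stood at 6.27, 6.34, 6.30 and 6.31 after dexamethasone, against 6.34, 6.24, 6.20 and 6.27 after vehicle. The groups overlapped, and the change of 0.05 (SE 0.04, 95% interval -0.03 to 0.12) was not called (adjusted p = 0.412). Its relative Ppargc1b had -0.06 and was not called either (adjusted p = 0.153). Pprc1, another relative named after its values were seen, had -0.21 (SE 0.06) and was called (limma, adjusted p = 0.0298). Its groups overlapped. This call was lost when any library but dexamethasone replicate 1 or vehicle replicate 1 was left out. It was also lost with no filter, a replicate block or the term for the level of rows with a mean below 0. The within-library difference of Ppargc1a to Ppargc1b was 1.37 ± 0.01 after dexamethasone and 1.27 ± 0.07 after vehicle (SD, n = 4 each). The means differed by 0.10 (exact permutation p = 0.0286, adjusted 0.0357). The groups barely separated, with a lowest dexamethasone value of 1.36 and a highest vehicle value of 1.34. Both genes were low, where values may be shrunken. Of 28 tested genes of the PGC-1, PPAR and FoxO network 6 rose, 1 fell and 21 were not called, with a median of 0.044. This is 25.0% called, against 15.1% of all rows. Foxo4, a transcription factor gene of the insulin and fasting response, rose by 0.19 (SE 0.04). Lpin1, which encodes a phosphatidate phosphatase that also works with PGC-1alpha, rose by 0.19 (SE 0.04), and its relative Lpin3 by 0.16 (SE 0.03). Rxra, the partner receptor gene of the PPARs, rose by 0.10 (SE 0.02), a call lost on removal of replicate 3 of the dexamethasone or 2 or 4 of the vehicle group (adjusted p between 0.0504 and 0.0604) and with quantile normalization (0.187). The calls for Foxo4 and Lpin1 were lost with the term for the level of rows with a mean below 0 (0.0659 and 0.0969). The list held 4 calls once replicate 3 or 4 of the dexamethasone or 2 of the vehicle group was removed, and 3 once vehicle replicate 4 was.

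Of 12 genes listed for gluconeogenesis, the making of glucose in liver and kidney, and its control, 7 passed the filter. Pck1, G6pc, Fbp1, Fbp2 and Tat were below it, and G6pc was listed at 0 in all libraries. Of the 7 tested genes Pfkfb2, which sets the level of fructose 2,6-bisphosphate and so glycolytic flux, rose by 0.16 (SE 0.04), and the other 6 were not called. This is 14.3% called, against 15.1% of all rows. The call was lost, leaving 0, on removal of replicate 3 or 4 of the dexamethasone or 4 of the vehicle group (adjusted p between 0.0555 and 0.0629) and with quantile normalization (0.0698).

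**Figure D3:**
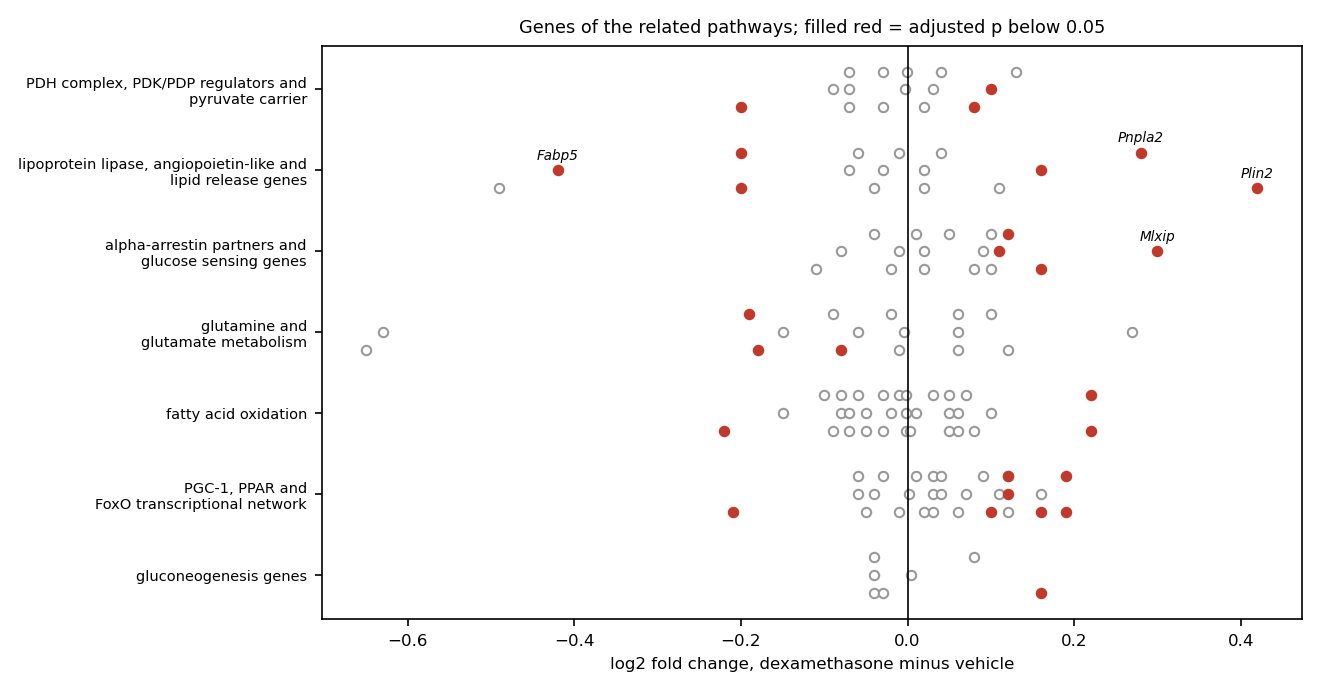
Log2 fold change, dexamethasone minus vehicle (horizontal axis), of the tested genes of the 7 related lists (rows, points spread vertically for legibility; 1 gene of the fatty acid oxidation list is not drawn). Called genes are filled red, and those with an absolute change of at least 0.27 are named. Plin2 at 0.42, Mlxip at 0.30 and Pnpla2 at 0.28 stand to the right of most genes of their lists, and Fabp5 at -0.42 to the left.

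Across the 8 libraries, the rows whose pattern came closest to that of Pdk4 were Vit (mean absolute difference 0.065 on the log2 scale after centring each gene), Slc6a6 (0.065) and Per1 (0.067). Vit encodes the matrix protein vitrin (Entrez 74199; chromosome 17, 78907480 to 79026737) and rose by 0.42. Slc6a6, the taurine transporter gene (Entrez 21366; chromosome 6, 91634061 to 91709057), rose by 0.48, and the clock gene Per1 by 0.42. The rows were picked for their closeness to Pdk4 in these libraries, so rises of a similar size follow from the choice. Shared regulation was not tested.

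**Figure D4:**
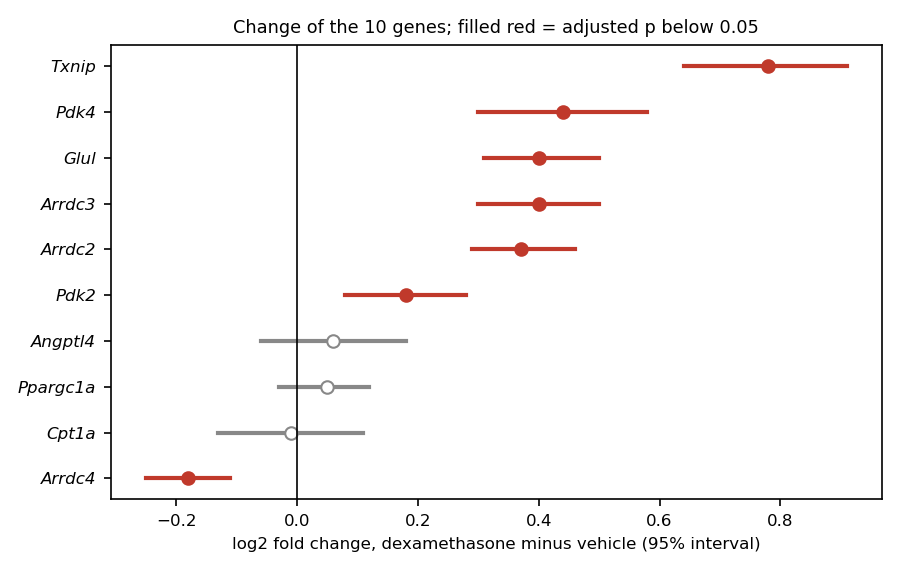
Log2 fold change, dexamethasone minus vehicle, with its 95% interval (horizontal axis) for the 10 genes, ordered by size; filled red points passed an adjusted p below 0.05 (limma). Txnip stands at 0.78, Pdk4, Glul, Arrdc3 and Arrdc2 between 0.37 and 0.44, and Arrdc4 at -0.18, whereas the intervals of Angptl4, Ppargc1a and Cpt1a include 0.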

How the data were processed

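RNA of whole corneas was measured in 8 libraries. The authors deposited normalized values on a log2 scale, a row per gene. Bowtie2, HTSeq and DESeq2 are named, with build mm9, per the submitters' processing notes. Their versions, the annotation, the strand setting and the log2 transformation are not stated there. Overlapping and antisense genes therefore cannot be told apart. Per the labels' protocols, reads were 75 bp paired-end with more than 40 M per sample; the depth behind each value is unknown, so no counting interval is given. No column was left unused.

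The values may be shrunken, which was not tested: the 812 rows with a mean of 2 to 3 had a median SD within groups of 0.021, where the log2 of a Poisson count would have 0.602 if the normalized value were the count itself. For Ppargc1a these were 0.045 and 0.163, and for Pdk4 0.111 and 0.151. Fold changes of low genes may therefore be understated. The 5078 rows at 0 in every library may be failed estimates.

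Rows with a mean of at least 3 entered limma 3.58.1 (R 4.3.3; group model, empirical Bayes with trend, two-sided, Benjamini-Hochberg adjustment over 14715 rows, called below 0.05). The fit was tested on simulated data. Pairs of relatives were compared within libraries by exact permutation of the 8 libraries in Python 3.11.15 with SciPy 1.17.1. Coordinates and exon lengths are those of GENCODE vM1 for NCBIM37 (mm9), and start-site windows from RefSeq on GRCm38.p6.

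The members, related lists, pairs and alternatives were chosen with earlier results of these data known. Named genes are the 10 members, up to 4 called genes of each related list by adjusted p, the genes of the pairs, 4 genes that check the treatment and the 3 rows most like Pdk4; others are marked. Some genes that this rule names are not reported here. Motifs, and a term for the level of rows with a mean below 0, were chosen after the data were seen. Alternatives were a replicate block, other filters, a pseudocount of 8, quantile and median scaling, other moderation, library weights and leaving out libraries.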

Additional observations from a re-analysis of the deposited data

Results flagged for a closer look

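Of 84 sets of 4 libraries (each gene named by rule, in each group), 6 had an end library farther from the next one than Dixon's test allows at 95%. By chance alone about 1 set in 20 would be marked, 4.2 here. None of the 10 fuel-switch genes was among them. In the dexamethasone group, replicate 3 stood apart at 12.66 for Pdha1 (gap over range 0.948) and at 8.99 for Acaca (0.905), and replicate 1 at 11.07 for Pnpla2 (0.903) and at 5.40 for Pycr1 (0.900). In the vehicle group, replicate 2 stood apart at 10.96 for Echs1 (0.846) and replicate 3 at 8.94 for Lpin1 (0.956).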

How the results depend on the processing

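The number of the 10 genes called stayed at 6 or 7 in all 19 alternatives, and the calls of Txnip, Pdk4, Glul, Arrdc2, Arrdc3 and Arrdc4 held in each. With a term for the level of rows with a mean below 0, 1055 rows were called in all, with 1 of the pyruvate dehydrogenase list, 2 of the alpha-arrestin partners, 1 of fatty acid oxidation, 1 of the PGC-1 network and 0 of gluconeogenesis, and Pdk2 was lost (adjusted p = 0.0982, limma). It also ended the calls of Pdha1, Pcx, Mgll, Lipg, Arrdc1, Slc2a3, Pycr1, Gls2, Acaca, Echs1, Acot1, Foxo4, Lpin1, Rxra and Pfkfb2 (adjusted p of 0.0541 to 0.269). This term varied very little between libraries and ran partly with the treatment, so the 2 cannot be fully told apart. Leaving out each library in turn gave 1411 (without vehicle replicate 4) to 2131 called rows against 2218, and 0 to 3 called genes of the pyruvate dehydrogenase list, 3 to 8 of the lipid release list, 2 to 5 of the alpha-arrestin partners, 1 to 5 of glutamine metabolism, 3 to 8 of the PGC-1 network and 0 to 1 of gluconeogenesis. Without dexamethasone replicate 1 and vehicle replicate 3, 7 glutamine genes were called. Quantile normalization left 0 gluconeogenesis genes. The cause of these shifts was not tested.

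Of the pairs, 8 of 10 passed, and 0 when a library or both of these libraries were left out, where the smallest exact p is 0.0571 or 0.1, so no pair could pass. The differences kept their sign there, from 0.41 to 0.50 for Pdk4 minus Pdk1 and from -1.02 to -0.89 for Arrdc4 minus Txnip with a library left out.

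Values that were not called changed sign in some alternatives. Angptl4 had -0.001 with the term for low rows. Cpt1a ranged from -0.06 to 0.02, Pdk1 from -0.05 to 0.03 and Pdk3 from -0.01 to 0.06 on leaving out a library. Pdk1 had 0.01 with library quality weights and 0.02 without both libraries, and Pdk3 -0.03 with the term for low rows. Arrdc2 minus Arrdc3 had 0.03 under quantile normalization.

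The deviations of same-numbered libraries from their group means had r of -0.31, 0.19, -0.14 and 0.14 over the tested rows. Centring on the group means ties these values to one another. They cannot show whether same-numbered libraries share a batch, and the titles give only a shared number. With a replicate block 1675 rows and 7 of the 10 genes were called, and 0 gluconeogenesis genes. The calls of Pcx (adjusted p = 0.101), Slc2a3 (0.0791), Pycr1 (0.0701), Gls2 (0.093), Rxra (0.0593) and Pfkfb2 (0.0617) were lost with the block (limma).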
